A study of Mus musculus with 6 samples.

Results

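The tricarboxylic acid cycle was described here through 9 genes that encode enzymes of the mitochondrial matrix, out of 8129 genes that held reads. They were taken by name and not by their values: Cs, Idh2, Idh3a, Idh3b, Idh3g, Ogdh, Dlst, Suclg1 and Fh1. Full-length cDNA made from their messenger RNA was sequenced on nanopores, from interscapular brown fat (the thermogenic depot between the shoulder blades) of male C57BL/6N wild type mice aged 20 weeks. In the cold group were 3 mice housed alone at 4 °C for 24 h, and in the control group were 3 mice of the same strain, sex and age. The text on cold housing stands on all 6 records, so the groups were read from titles and the treatment tag. Of the housing of control mice only the general 22 to 24 °C is recorded, and single housing cannot be told apart from cold. The extraction text names eWAT, a white fat depot, whereas the tissue label gives interscapular brown fat.

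The cycle takes acetyl groups from fatty acids, glucose and amino acids, joins them to oxaloacetate and oxidises them in a ring of reactions in the mitochondrial matrix. The electrons set free pass as NADH and reduced flavin to the respiratory chain. In brown adipocytes, which are packed with mitochondria and burn fatty acids, the uncoupling protein UCP1 lets that chain release its energy as heat. Isocitrate is oxidised in the matrix both by an NAD-dependent enzyme, IDH3, built of alpha, beta and gamma subunits, and by an NADP-dependent enzyme, IDH2, a source of NADPH for reduction of glutathione and other substrates.

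Because full-length cDNA was sequenced and its reads were counted per annotated transcript, the forms of each mRNA can be set side by side. The sequences below show some of the places where the counted forms of 3 of the genes differ, taken 5′ to 3′ from GENCODE M21 transcripts on GRCm38. Among the differences not shown are bases at the transcript ends and an extra exon of 45 bases in Ogdh-203. Idh3a-205 and Idh3a-201 share their exons and differ in their first base, and the stretch shown (chr9:54586463-54586519, plus strand) runs between their annotated start codons, in capitals.
Idh3a start codons: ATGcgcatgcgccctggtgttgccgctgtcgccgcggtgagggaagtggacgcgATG
Idh3a-204 is annotated as a target of nonsense-mediated decay, the pathway that removes mRNAs with an early stop codon. It holds an extra exon of 95 bases as exon 3 of 12. The exon from its first base to the annotated stop codon, in capitals, is shown (chr9:54592161-54592184, plus strand).
Idh3a-204 extra exon to its stop codon: ggcatcgtttgcattactattTAA
Idh2-204 is annotated as a decay target as well, and its exon 6 starts 109 bases earlier than in Idh2-201 (chr7:80098273-80098381, minus strand). The capitals mark the AG that ends the intron of Idh2-201.
Idh2-204 extra bases: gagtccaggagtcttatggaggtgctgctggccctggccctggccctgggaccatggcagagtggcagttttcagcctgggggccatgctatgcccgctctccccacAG
Transcripts of Ogdh carry either of 2 alternative forms of exon 4, and the capitals in both mark in-frame GAT and GAC codons, which encode aspartate. The form of Ogdh-201 (chr11:6316978-6317080, plus strand) has 103 bases and 6 such codons, and that of Ogdh-203 (chr11:6316765-6316855, plus strand) has 91 bases and 3. Splice forms of this region are known to differ in how calcium activates the enzyme.
Ogdh exon 4 of Ogdh-201: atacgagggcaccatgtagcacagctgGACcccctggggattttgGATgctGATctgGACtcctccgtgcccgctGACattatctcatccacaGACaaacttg
Ogdh exon 4 of Ogdh-203: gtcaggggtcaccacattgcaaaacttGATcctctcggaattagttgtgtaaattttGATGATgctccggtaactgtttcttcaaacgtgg

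Cold libraries held 2923005, 2982713 and 2951890 reads (replicates 4, 11 and 15, which are mouse numbers) and control libraries 1849431, 1014847 and 1735360 (replicates 2, 9 and 14). All cold libraries were deeper than all controls, so that in raw counts depth cannot be told apart from group. Levels are therefore given as CPM, read counts relative to the library total after TMM scaling. The brown adipocyte marker Ucp1 stood at 4137, 4081 and 4170.3 CPM in cold libraries and at 4623, 4146 and 4792 CPM in control libraries. Of the 10 brown adipocyte markers 8 were tested, and 1 was called higher in the cold, Elovl3 (log2 change 3.69), and 2 lower, Cox8b (-0.98) and Adipoq (-0.88), with a summed level of 51793 to 55609 CPM in cold and 48638 to 59086 CPM in control libraries. Of the 7 white fat markers 1 was tested and called higher, Retn, at 253, 149.6 and 175 CPM in cold libraries and 66.0, 117 and 93.0 CPM in control libraries (log2 change 1.07, edgeR adjusted p = 0.0121). Of the rest Nnat had 66 reads, 51 of them from cold replicate 11, Lep, which encodes leptin, had 1 read in all and Hoxc9 had 0. The 15 skeletal muscle markers varied most: 9 were tested and 0 called, and their summed level was 259, 3358 and 15789.6 CPM in cold replicates 4, 11 and 15 and 199, 696 and 1136 CPM in control replicates 2, 9 and 14. Markers of endothelium (3 of 9 tested), macrophages (1 of 9), fibroblasts (1 of 6) and blood (4 of 5) had 0 called members. The untested markers did not pass the filter on low counts, so apart from blood these cell types were hardly covered.

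Most mRNAs of the cycle enzymes did not pass the test after 24 h of cold. Of the 9 genes, all of which passed the filter on low counts, 0 rose and 1 fell, Idh2, whereas edgeR's quasi-likelihood test called 33.2% of all 2093 tested genes at a Benjamini-Hochberg adjusted p under 0.05, 18.1% higher and 15.1% lower in the cold. No member differed 2-fold between the groups, as 26.9% of tested genes did. The median log2 change, cold minus control, was 0.12 over the members and 0.04 over all tested genes. The cold libraries lay wholly on 1 side of the control libraries for 4 of the 9 members, above for Idh3a and below for Idh2, Idh3g and Suclg1, against 47.8% of tested genes. Summed over the members, the level was 14305, 14702 and 13565 CPM in cold libraries and 13518, 15529.5 and 16860.0 CPM in control libraries. The groups overlapped. Idh3g and Cs made up most of this sum, at 7077 and 3537 CPM in cold replicate 4.

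**Figure D1:**
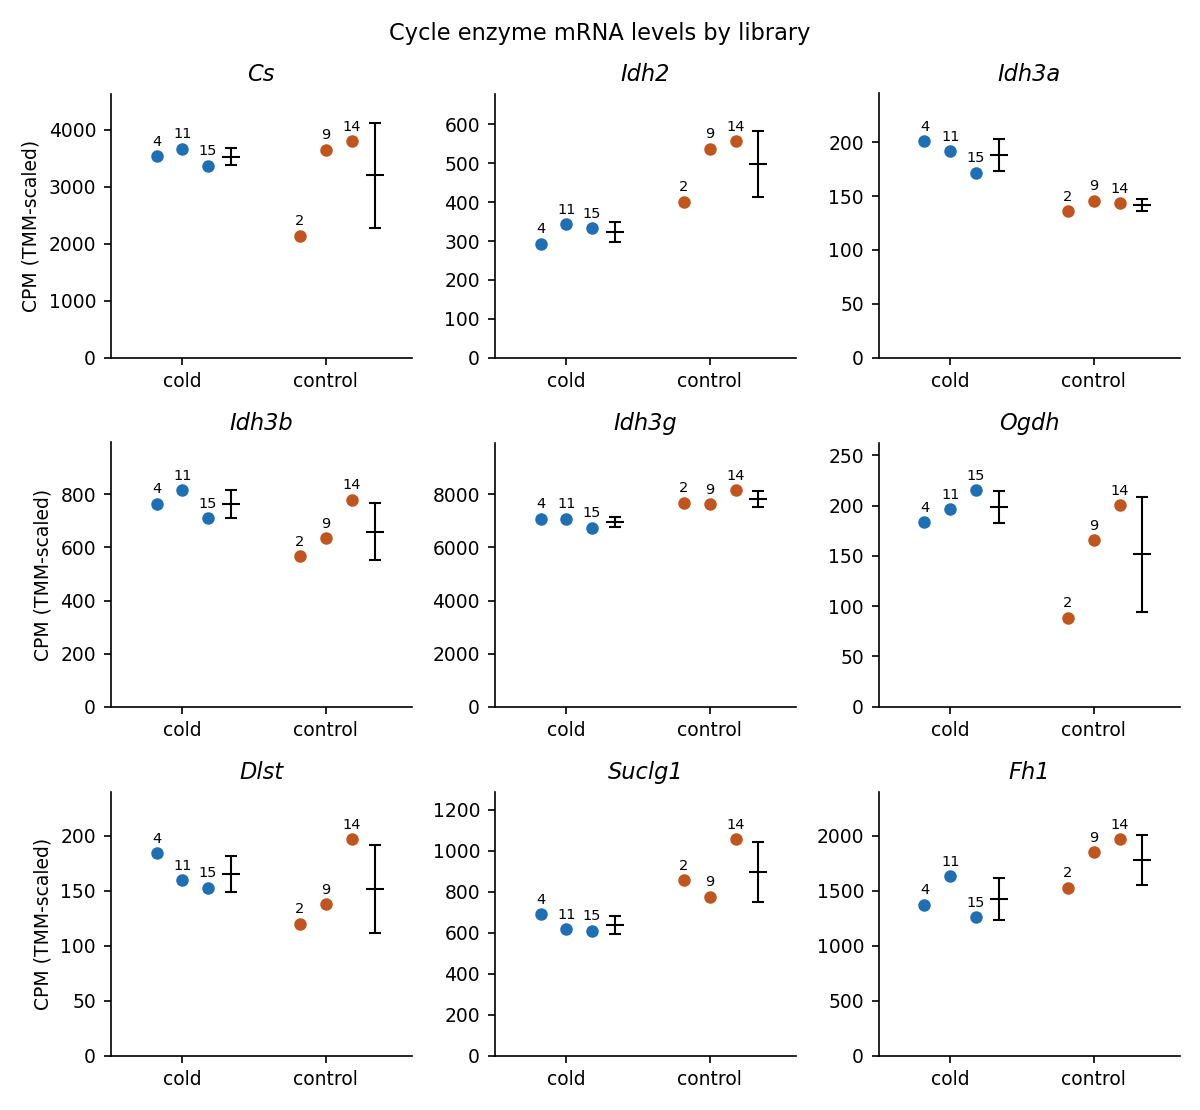
Levels of the 9 enzyme mRNAs in TMM-scaled CPM, 1 panel per gene, with 1 point per library labelled by mouse number, cold at left and control at right, and the mean with SD beside each group. Idh2 was the single called gene, at 293 to 344 CPM in the cold and 401 to 557 CPM in control, while control replicate 2 lay far below the other libraries for Cs and Ogdh.

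Citrate synthase, encoded by Cs (chr10:128337734-128362479, plus strand), joins acetyl-CoA to oxaloacetate and opens the cycle. Its level was 3537, 3666 and 3369.7 CPM in cold replicates 4, 11 and 15 and 2141, 3647 and 3798 CPM in control replicates 2, 9 and 14. The cold libraries lay close together, within the range of the controls, where replicate 2 was low. The log2 change was 0.14 ± 0.20 (SE), with a 95% interval of -0.30 to 0.59 and an edgeR adjusted p of 0.623, and it was -0.090 without control replicate 2. The related genes Csl and Gm48254, which are 91.9% and 92.1% identical to Cs over the aligned stretch, held 0 reads.

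Idh2 (chr7:80094846-80115392, minus strand) fell in the cold. It had 293, 344 and 332 CPM in cold libraries and 401, 537 and 557 CPM in control libraries, and each cold library lay below each control library. The mean was 323 ± 26.5 CPM in the cold and 498 ± 85 CPM in control (SD, n = 3 each), a fold of 0.649. The log2 change was -0.62 ± 0.19, with a 95% interval of -1.05 to -0.20 and an edgeR adjusted p of 0.0287. In whole tissue, fewer cells that express a gene and less of its RNA per cell cannot be told apart. The call rests on the whole set of libraries: it was lost without any 1 of them other than control replicate 2 (log2 changes of -0.66 to -0.56, edgeR adjusted p of 0.054 to 0.106), and stood at -0.77 without control replicate 2 (adjusted p = 0.00409). It was also lost with no count filter (-0.50, adjusted p = 0.205) and on flow cell 2 alone (-0.53, adjusted p = 0.0617). The muscle markers were highest in cold replicates 11 and 15, and with both left out the change of Idh2 was -0.71 and not called (adjusted p = 0.221).

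None of the 3 subunits of IDH3 passed the test. Idh3a (chr9:54586334-54604661, plus strand) encodes the catalytic alpha subunit and had 201, 192 and 172 CPM in cold libraries and 136, 146 and 143 CPM in control libraries. All cold libraries lay above all controls, with means of 188 ± 15.0 CPM in the cold and 142 ± 5.29 CPM in control (SD, n = 3 each). Its log2 change was 0.41 ± 0.19, with a 95% interval of -0.0043 to 0.82 and an edgeR adjusted p of 0.117, and no alternative setting brought it past the threshold. Idh3b (chr2:130279309-130284547, minus strand) encodes the beta subunit and had 765, 816 and 711 CPM in cold libraries and 567, 634 and 780.03 CPM in control libraries. These groups overlapped through control replicate 14, and the log2 change was 0.21 ± 0.18 (95% interval -0.18 to 0.60, edgeR adjusted p = 0.387). Its exons overlap those of Nop56 on the opposite strand, to which 1 read was assigned. Idh3g (chrX:73778963-73786897, minus strand) encodes the regulatory gamma subunit and held by far the most reads of the 9 genes. It had 7077, 7079.6 and 6745 CPM in cold libraries and 7679.6, 7636 and 8159.7 CPM in control libraries. Each cold library lay below each control library, but the difference was small, at a log2 change of -0.17 ± 0.12 (95% interval -0.43 to 0.10, edgeR adjusted p = 0.315).

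The 2-oxoglutarate dehydrogenase complex, which turns 2-oxoglutarate into succinyl-CoA, did not pass the test in either of the 2 members measured here. Ogdh (chr11:6291633-6356642, plus strand), the E1 component that decarboxylates the substrate, had 184, 197 and 215 CPM in cold libraries and 88.7, 165 and 200.4 CPM in control libraries. The cold libraries overlapped the controls only at control replicate 14, and control replicate 2 was low. The log2 change of 0.39 ± 0.28 had the widest 95% interval of the 9 members, -0.22 to 1.00 (edgeR adjusted p = 0.304), and was 0.11 without control replicate 2. Dlst (chr12:85110833-85134845, plus strand), the E2 core that passes the succinyl group to coenzyme A, had 184, 159.5 and 153 CPM in cold libraries and 120.1, 138 and 197 CPM in control libraries. The cold libraries lay within the control range, with a log2 change of 0.12 ± 0.23 (95% interval -0.38 to 0.63, edgeR adjusted p = 0.704), which was -0.030 without control replicate 2.

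Suclg1 (chr6:73248382-73276911, plus strand) encodes the alpha subunit that the GTP- and ATP-forming succinyl-CoA ligases share, and it lay just outside the threshold. It had 690.2, 619 and 609 CPM in cold libraries and 856, 776 and 1057 CPM in control libraries, so that every cold library was lower. The mean was 639 ± 44.3 CPM in the cold and 896 ± 145 CPM in control (SD, n = 3 each), with a log2 change of -0.49 ± 0.18, a 95% interval of -0.87 to -0.10 and an edgeR adjusted p of 0.0529. Whether it was called depended on the setting: it was called lower with DESeq2's test (-0.54, adjusted p = 0.0249) and without control replicate 2 (-0.53, adjusted p = 0.0324) or 9 (-0.61, adjusted p = 0.0366), but not without any 1 of the other 4 libraries (edgeR adjusted p = 0.0928 to 0.162).

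Fh1 (chr1:175600374-175625635, minus strand) encodes fumarase, which adds water to fumarate to form malate. It had 1374, 1629.8 and 1258 CPM in cold libraries and 1528, 1851 and 1968 CPM in control libraries, groups that overlapped at cold replicate 11. The log2 change was -0.33 ± 0.17 (95% interval -0.69 to 0.04, edgeR adjusted p = 0.155). Without control replicate 2 it was called lower (-0.44, adjusted p = 0.0398). Control replicate 2 was the lowest of all 6 libraries for 5 members, Cs, Idh3a, Idh3b, Ogdh and Dlst.

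**Figure D2:**
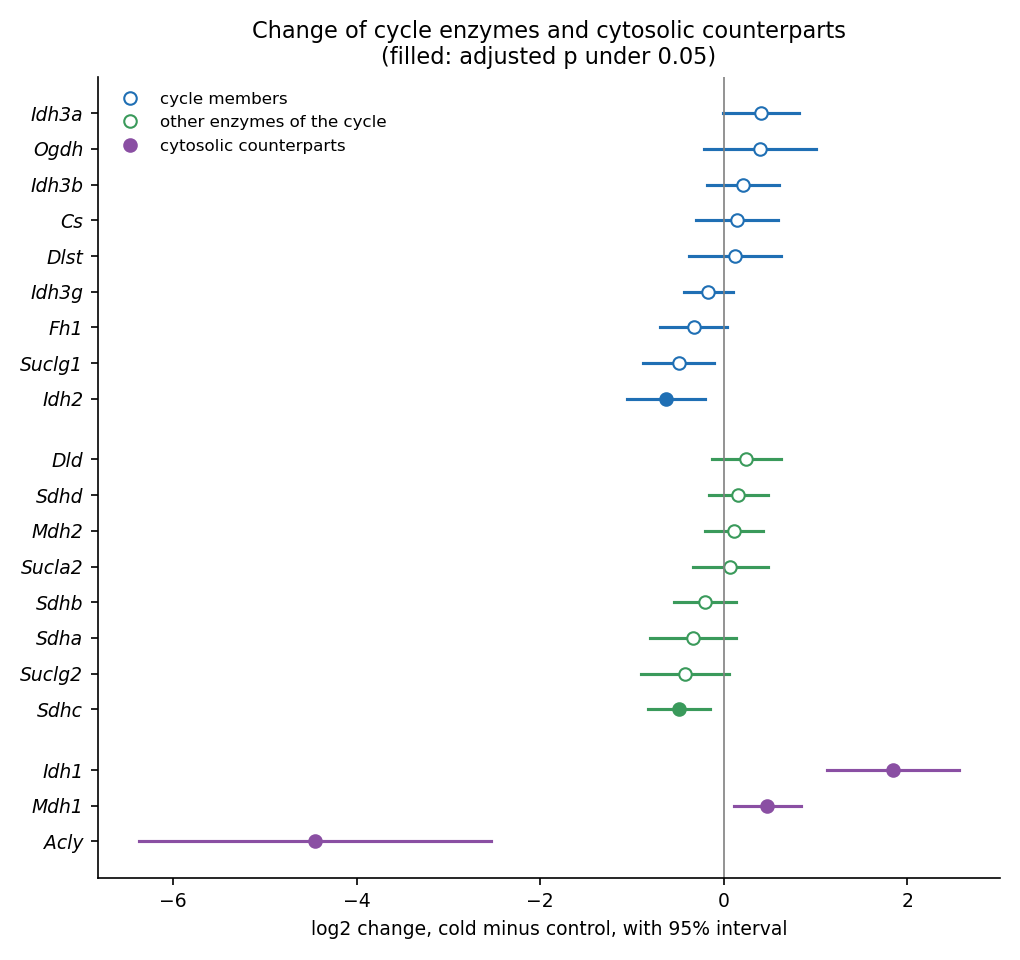
Log2 change, cold minus control, with its 95% interval, for the 9 cycle members, 8 tested enzymes of the rest of the cycle and the tested cytosolic counterparts, where filled points passed an edgeR adjusted p under 0.05. The members run from 0.41 for Idh3a to -0.62 for Idh2, while Idh1 and Acly stand apart at 1.85 and -4.45.

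Levels of different genes were set side by side per kilobase of the main transcript. In the cold the level of Idh3g was 5235 ± 144 CPM per kb, that of Cs 1205 ± 50.8 and that of Fh1 539 ± 72.2 (SD, n = 3). Below them stood Idh3b at 473 ± 32.6, Suclg1 at 421 ± 29.2 and Idh2 at 185 ± 15.2 CPM per kb. Per kb the lowest levels were those of Idh3a at 72.9 ± 5.83, Dlst at 59.8 ± 5.97 and Ogdh at 48.1 ± 3.88 CPM per kb. This order depends on the division by length, though a read of full-length cDNA counts once whatever its length. For such reads the division sets long transcripts too low. In undivided CPM the cold mean of Ogdh, whose main transcript is the longest, was 199, above those of Idh3a, 188, and Dlst, 165. In the order per kb Fh1 and Idh3b, Idh3b and Suclg1, and Idh3a and Dlst did not separate in the cold, since their libraries overlapped. The order in control was the same except that Suclg1, at 590 ± 95.4 CPM per kb, stood above Idh3b, at 409 ± 67.4. Within IDH3 the read levels of the 3 subunits, which the enzyme holds in fixed numbers, thus lay far apart. Idh3a was lowest and Idh3g highest in every library. Their main transcripts differ in length, at 2580 bases for Idh3a and 1331 for Idh3g. Whether the cDNA preparation and its amplification recovered transcripts of different length evenly was not tested, so these levels need not give the proportions of the mRNAs.

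Ratios between subunits do not depend on how libraries are scaled, and 5 of them were compared. The exact permutation test used, two-sided, allows no p below 0.1 for 3 libraries against 3. The ratio of Idh3a to Idh3g reads was 0.0284, 0.0271 and 0.0254 in cold libraries and 0.0177, 0.0191 and 0.0176 in control libraries. Every cold library was higher, by 1.49-fold on average (log2 difference 0.57, exact p = 0.1, 0.167 after Benjamini-Hochberg adjustment over the 5 ratios). The ratio of Idh3b to Idh3g was 0.108, 0.115 and 0.105 in cold libraries and 0.0738, 0.0830 and 0.0956 in control libraries. It too was higher in every cold library (log2 difference 0.39, exact p = 0.1, adjusted 0.167). The reads of Idh2 over the summed reads of the IDH3 subunits were 0.0365, 0.0425 and 0.0436 in cold libraries and 0.0478, 0.0639 and 0.0613 in control libraries. This ratio was lower in every cold library (log2 difference -0.49, exact p = 0.1, adjusted 0.167). Most of the summed reads were of Idh3g, with 98176 over all libraries against 9869 of Idh3b and 2331 of Idh3a. The ratios that separated the groups thus share Idh3g as all or most of the denominator and are not independent. The ratio of Idh3a to Idh3b averaged 0.246 ± 0.0146 in the cold and 0.218 ± 0.0298 in control (SD, n = 3 each, exact p = 0.2, adjusted 0.25). That of Dlst to Ogdh averaged 0.840 ± 0.149 in the cold and 1.06 ± 0.268 in control (exact p = 0.3). Both of these overlapped between the groups. With 3 libraries a group no ratio could reach a p under 0.05.

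**Figure D3:**
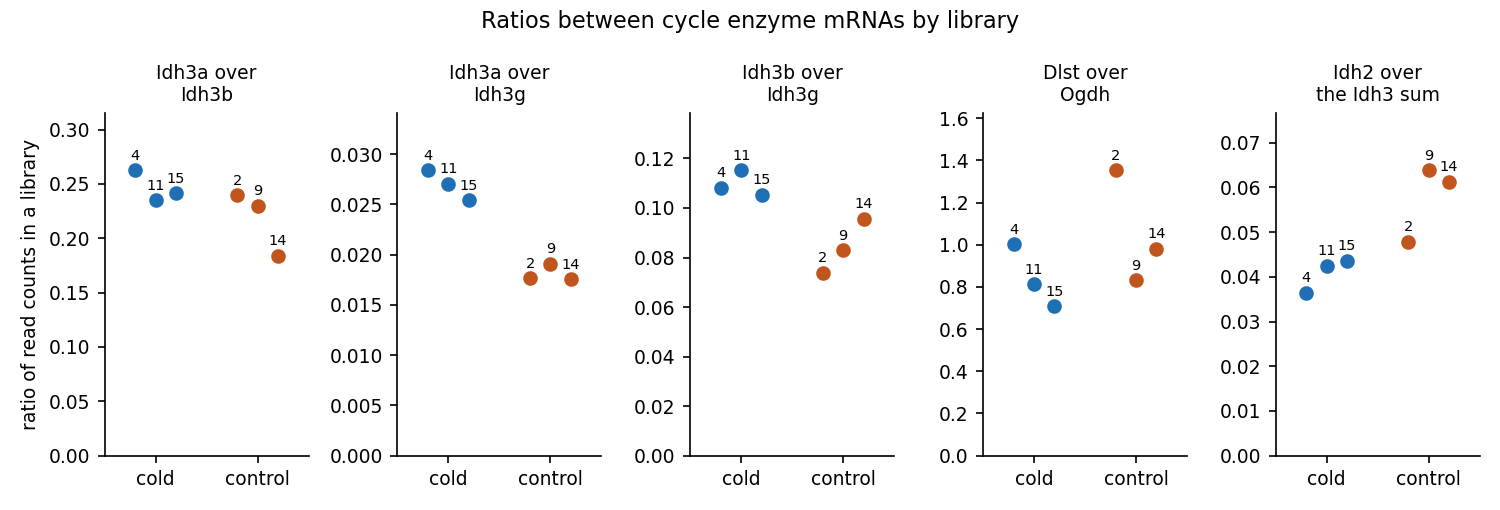
Ratio of read counts of 2 cycle mRNAs within each library, 1 panel per ratio, with points labelled by mouse number and cold at left of control. Idh3a over Idh3g lies at 0.0254 to 0.0284 in the cold and 0.0176 to 0.0191 in control, and the ratios of Idh3a to Idh3b and of Dlst to Ogdh overlap.

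Of 38 transcripts of the 9 genes that held reads, 14 were tested, and 1 rose and 3 fell in the cold, where edgeR called 32.7% of all 2787 tested transcripts, 17.4% higher and 15.3% lower. The transcript that rose was Idh3a-201, the form with the later first base and start codon. It begins 177 bases after Idh3a-205 and otherwise has the same exons. Reads of Idh3a-205 cut short at the 5′ end therefore cannot be told apart from it. Idh3a-201 had 19.0, 12.4 and 15.6 CPM in cold libraries and 7.61, 4.14 and 2.99 CPM in control libraries. These rest on 56, 37 and 48 reads in the cold and 14, 4 and 5 in control. Each cold library was higher, with a log2 change of 1.61 ± 0.38 and an edgeR adjusted p of 0.00688. The call was kept without each library in turn (log2 changes of 1.31 to 2.18), and on flow cell 1 alone (2.37, adjusted p = 0.00178), but lost on the reads of flow cell 2 (1.07, adjusted p = 0.105). The longer and more abundant Idh3a-205 was not called, at 118 ± 9.83 CPM in the cold and 95.8 ± 4.06 CPM in control (SD, n = 3 each, log2 change 0.30 ± 0.20, edgeR adjusted p = 0.266).

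As a share of the gene's reads, Idh3a-201 took 9.35, 6.39 and 9.21% in cold libraries and 5.58, 2.82 and 2.09% in control libraries. The exact 95% binomial interval of the lowest cold share, 4.54 to 8.70%, overlapped that of the highest control share, 3.08 to 9.18%. These intervals cover counting error only, since reads without molecular identifiers after PCR are not independent molecules. The test of transcript usage did not call Idh3a (edgeR's diffSpliceDGE, adjusted p = 0.384). It called 0 of the 4 members with more than 1 tested transcript, Idh2, Idh3a, Idh3g and Ogdh, beside 1.67% of 539 genes tested. Counts per transcript depend on how reads that fit several forms were assigned, a step not given in the sources used here.

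The falls were of both tested forms of Idh2 and of Idh3g-209. Idh2-201 had 242 ± 23.9 CPM in the cold and 373 ± 61.7 CPM in control (log2 change -0.63 ± 0.20, edgeR adjusted p = 0.0289). Idh2-204, the form annotated as a decay target, had 82.1 ± 5.17 CPM in the cold and 127 ± 23.2 CPM in control (-0.62 ± 0.21, edgeR adjusted p = 0.0413). The forms of Idh2 fell side by side: Idh2-204 took 26.1, 23.5 and 26.7% of the gene's reads in cold libraries and 24.8, 26.2 and 24.9% in control libraries. Both calls were lost without any 1 library other than control replicate 2, with no count filter and on flow cell 2 alone. That of Idh2-204 was also lost with library totals alone (edgeR adjusted p = 0.0671), where the gene and Idh2-201 were still called. Idh3g-209, a form annotated with retained introns, had 357, 291 and 468 CPM in cold libraries and 557, 625 and 537 CPM in control libraries (-0.62 ± 0.20, edgeR adjusted p = 0.034). Its share of the gene's reads was 5.01, 4.06 and 7.02% in cold libraries and 7.23, 8.13 and 6.60% in control libraries, which overlapped, and the call was lost without cold replicate 4 (-0.60) or 11 (-0.47) and without control replicate 9 (-0.55) or 14 (-0.68). It was also lost with library totals alone (edgeR adjusted p = 0.0659), at equal depth (0.0541) and with no count filter (0.22). The main form Idh3g-201 held 92.9 to 95.9% of the gene's reads in cold libraries and 91.8 to 93.4% in control libraries.

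Idh3a-204, with its early stop codon, made up a large part of the gene's reads in both groups, 29.0, 30.6 and 27.6% in cold libraries and 26.3, 28.2 and 31.8% in control libraries. The groups overlapped, and the transcript was not called (log2 change 0.43 ± 0.23, edgeR adjusted p = 0.172). Ogdh reads were also split by the form of exon 4 in the transcript to which they were assigned. Transcripts with the form of 103 bases took 97.2, 98.0 and 97.1% in cold libraries and 94.5, 96.9 and 98.5% in control libraries. Single reads were not checked for the exon. The intervals overlapped throughout, from 95.5 to 99.0% over the cold libraries and from 89.8 to 99.5% over the control libraries. In Cs the single form Cs-201 held 45678 of 45680 reads.

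**Figure D4:**
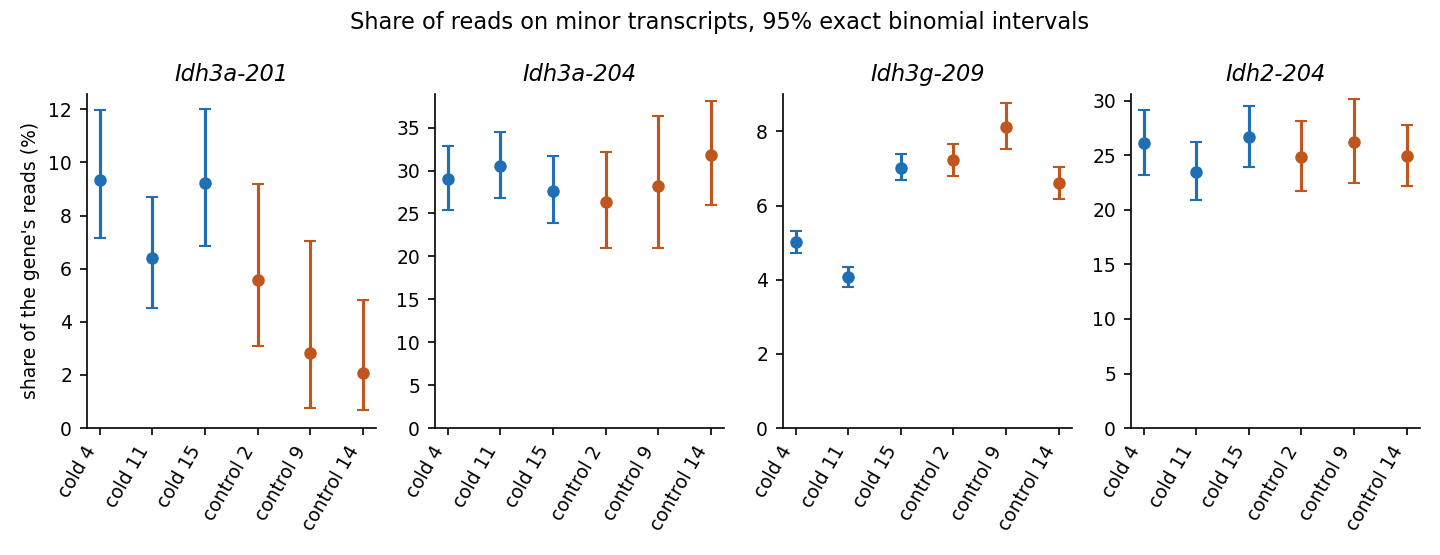
Percentage of the gene's reads held by 4 minor transcripts in each library, with exact 95% binomial intervals, cold libraries at left and control at right. Idh3a-201 takes 6.39 to 9.35% in the cold and 2.09 to 5.58% in control, Idh3g-209 is lowest in cold replicates 4 and 11, and Idh3a-204 and Idh2-204 overlap between the groups.

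The other enzymes of the cycle behaved in the same range. Of 10 listed genes 9 were tested, and 0 rose and 1 fell, where 33.2% of all tested genes were called. The median log2 change was -0.15, beside 0.04 over all genes. Ogdhl, a relative of Ogdh, had no reads. The fall was of Sdhc, a membrane anchor of succinate dehydrogenase, with 778, 754 and 673 CPM in cold libraries and 1017, 1039.9 and 1036 CPM in control libraries. All cold libraries were lower, by a log2 change of -0.49 ± 0.15 (edgeR adjusted p = 0.0318), a call lost without any 1 library other than control replicate 2 (adjusted p = 0.0573 to 0.117). The call of Sdhc was also lost with library totals alone (-0.42, adjusted p = 0.059) and with no count filter (-0.36, adjusted p = 0.394), which left 0 calls in the list. The other subunits of that enzyme did not pass, with log2 changes of -0.34 ± 0.21 for the flavoprotein Sdha, -0.20 ± 0.15 for the iron-sulfur subunit Sdhb and 0.16 ± 0.15 for the anchor Sdhd. Suclg2 and Sucla2, which give succinyl-CoA ligase its GTP and ATP specificity beside Suclg1, had log2 changes of -0.42 ± 0.22 and 0.07 ± 0.18, and neither was called. Dld, the E3 component shared by several 2-oxo acid dehydrogenases, stood at 0.25 ± 0.17, and malate dehydrogenase Mdh2 at 0.11 ± 0.14, also not called.

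In the cytosol all 3 tested counterparts were called, beside 33.2% of all tested genes. Idh1, the cytosolic NADP-dependent isocitrate dehydrogenase, had 24.8, 27.1 and 20.1 CPM in cold libraries and 4.33, 10.3 and 6.60 CPM in control libraries. It rose 3.6-fold, by a log2 change of 1.85 ± 0.33 (edgeR adjusted p = 0.0016), in a call kept without each library in turn. The control values rested on 8, 10 and 11 reads. Cytosolic malate dehydrogenase Mdh1, part of the malate-aspartate shuttle, had 1069, 1023 and 1084 CPM in cold libraries and 790.2, 645 and 849 CPM in control libraries. It rose by 0.47 ± 0.17 (edgeR adjusted p = 0.0476), a call lost with DESeq2's test (adjusted p = 0.0727) and without any 1 library other than control replicate 2. The call of Mdh1 was also lost with DESeq2 size factors (edgeR adjusted p = 0.0657), on flow cell 1 alone (0.0549) and with protein-coding transcripts alone (0.0501). It was kept with library totals alone, with no count filter, at equal depth and on flow cell 2 alone. Acly, which splits exported citrate into acetyl-CoA for lipid synthesis, had 2.69, 0 and 0.659 CPM in cold libraries and 13.0, 52.4 and 16.2 CPM in control libraries. It fell by 4.45 ± 0.84 on the log2 scale (edgeR adjusted p = 0.00437), on 8, 0 and 2 reads in the cold, where 3 reads come to 1.01 to 1.03 CPM before TMM scaling. The change of Acly was -6.06 with cold replicate 4 left out and -3.69 with control replicate 9 left out, both called. Aco1, with 13 reads in all, was not tested. The difference between matrix and cytosolic enzymes was itself not tested.

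Several genes that feed the cycle or lie beside it were called, where 33.2% of all tested genes were. Of 11 genes of pyruvate entry, the pyruvate dehydrogenase complex and its regulators, 8 were tested, and 1 rose and 5 fell, with a median log2 change of -0.78. Mpc1, a subunit of the mitochondrial pyruvate carrier, fell by 1.04 ± 0.14 (edgeR adjusted p = 0.0004), at 4427 ± 632 CPM in the cold and 9076 ± 238 CPM in control (SD, n = 3 each). Pdhb, the beta subunit of pyruvate dehydrogenase, fell by 1.00 ± 0.17 (edgeR adjusted p = 0.00142). Its call was lost with cold replicates 11 and 15 left out together (-0.82, adjusted p = 0.123). Pdk4, a kinase that shuts off pyruvate dehydrogenase, rose by 2.07 ± 0.34 (edgeR adjusted p = 0.00112), at 187 ± 55.0 CPM in the cold and 44.3 ± 21.5 CPM in control. The other falls were of Mpc2, Pdha1 and Dlat, named after their values were seen, and without both of those libraries the call of Pdha1 was lost as well (-1.12, adjusted p = 0.0544).

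Of 15 enzymes that feed or drain the cycle, 7 were tested and 1 rose, Mcee, the methylmalonyl-CoA epimerase on the path from propionate to succinyl-CoA (1.56 ± 0.25, edgeR adjusted p = 0.000966). The median of that list was 0.02. Of 7 mitochondrial carriers of cycle acids, 4 were tested and 1 fell, the citrate carrier Slc25a1, at 45.9 ± 15.7 CPM in the cold and 669 ± 219 CPM in control (-3.86 ± 0.33, edgeR adjusted p = 2.1e-05). The median over the carriers was 0.23. In both of these lists the called share lay below the 33.2% of all tested genes. Of the 13 mRNAs encoded in the mitochondrial genome, which supply core subunits of the respiratory chain and ATP synthase, 12 were tested, 0 rose and 11 fell, with a median of -1.27. Among them mt-Nd4 fell by 1.47 ± 0.18, mt-Atp6 by 1.69 ± 0.21 and mt-Co2 by 1.54 ± 0.20 on the log2 scale (edgeR adjusted p of 0.000191, 0.000215 and 0.000279). Reads of these mRNAs over all libraries ran from 29 for mt-Nd4l to 188860 for mt-Cytb. How evenly the cDNA preparation captured them in each library was not tested. Whether the falls lie in the mRNAs or in their capture was therefore not tested either. The tested mRNA that was not called, mt-Co1, had a log2 change of 0.59 ± 0.44 on 2832 reads (edgeR adjusted p = 0.329).

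**Figure D5:**
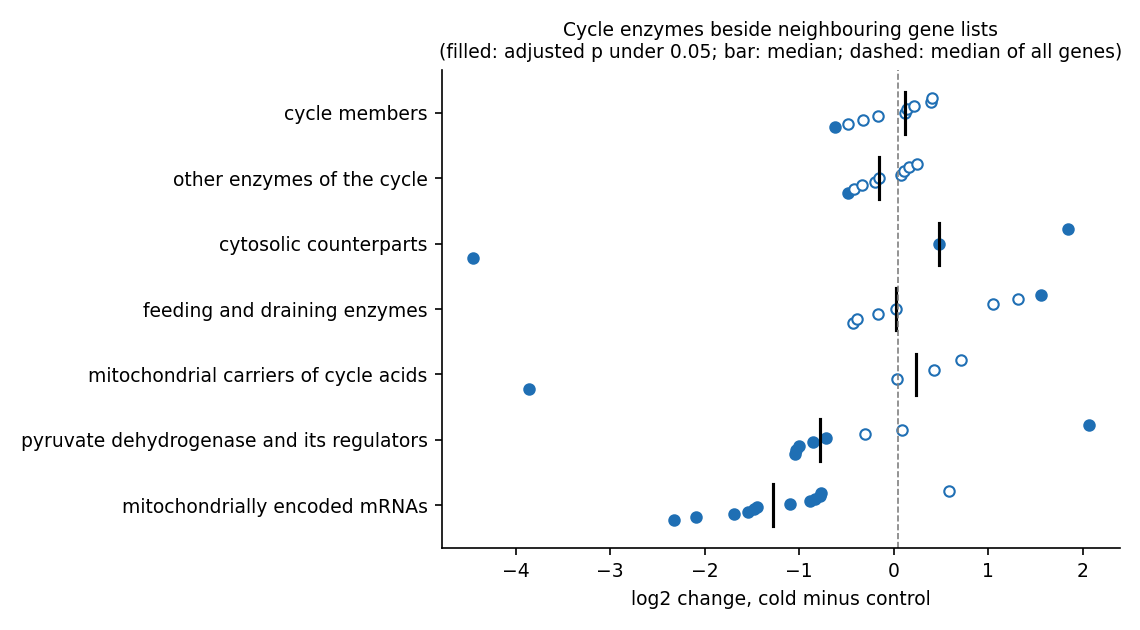
Log2 change, cold minus control, of every tested gene of the cycle and of 6 neighbouring lists, 1 point per gene, filled at an edgeR adjusted p under 0.05, with a bar at each list's median and a dashed line at the median of all tested genes, 0.04. The 9 cycle members lie between -0.62 and 0.41, whereas the pyruvate dehydrogenase list and the mitochondrially encoded mRNAs have medians of -0.78 and -1.27.

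The genes whose log2 level followed the summed level of the 9 members most closely over the 6 libraries were Tmem143, Lipe, Memo1, Snx17 and Copz1. Their Pearson correlations were 0.974, 0.961, 0.956, 0.956 and 0.955. Idh3g and Cs made up most of the sum, so the members with few reads hardly counted in it. Lipe, the hormone-sensitive lipase that releases fatty acids, had 1405, 1539 and 1159 CPM in cold libraries and 1037, 1720.1 and 1961 CPM in control libraries. These are the highest of 2093 correlations over only 6 libraries that share depth and preparation, and they are a description.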

How the data were processed

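Poly(A) RNA was turned into full-length cDNA with the TeloPrime kit, amplified and run on 2 nanopore flow cells per library, per the labels' protocols. The authors' deposited files give raw counts of reads per Ensembl transcript. The submitters' processing notes name minimap2 and GRCm38, with the counting method not given in the sources used here. Transcripts were joined to genes through GENCODE M21 (14671 of 14693 identifiers matched once versions were dropped) and counts were summed over flow cells and transcripts. Tests over the 6 libraries used edgeR 4.0.16 (R 4.3.3): filterByExpr at a minimum count of 10, TMM scaling, the robust quasi-likelihood F test, and Benjamini-Hochberg adjustment over all genes or transcripts, with calls at 0.05. The SE was worked back as the size of the change over the root of F. CPM errors are SD over 3 libraries. The labels give each library its own mouse number. The edgeR p-values weigh the group difference against the spread between these mice, which the fit estimates partly from all genes. Depth ran from 1014847 to 2982713 reads. Binomial intervals of read shares cover counting error only, whereas the intervals of log2 changes come from the edgeR fit over the libraries. Usage was tested with diffSpliceDGE, ratios by exact permutation. Copies were sought with blastn 2.17.0 at a minimum identity of 85%. The members, gene lists and naming rule were chosen with earlier results of these data known. Named are all members, tested enzymes of the rest of the cycle (1 is not reported here, but counts in its list) and cytosolic counterparts, at most 3 called genes of each other list by smallest p, tested transcripts with at least 5% of a gene's reads, and the 5 genes most like the summed members. Alternatives were other scalings, DESeq2 1.42.0, no filter, equal depth, single flow cells, protein-coding transcripts alone, and each library left out.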

Additional observations from a re-analysis of the deposited data

How the results depend on the processing

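No paired analysis was made, since the sample labels used here give nothing that ties a cold mouse to a control mouse. Of the 9 members 1 was called, and 2 were with DESeq2 size factors, DESeq2's test, flow cell 1 alone or protein-coding transcripts alone, Idh2 and Suclg1 each time. With no count filter or flow cell 2 alone 0 were called, and leaving out 1 library gave 0 to 3. Over these omissions the log2 change ran from -0.090 to 0.26 for Cs, -0.030 to 0.33 for Dlst, -0.066 to 0.27 for Cs-201, -0.063 to 0.89 for Ogdh-204 and -0.0095 to 0.35 for Dlst-201. The negative values came without control replicate 2. That of Sucla2 ran from -0.080, without control replicate 9, to 0.16. The signs turned for these 6, none of them called. The cause was not tested. Leaving out 1 library gave 498 to 687 called genes in place of 695, 611 to 862 transcripts in place of 912, 2 to 6 genes called for transcript usage in place of 9, and 19 to 24 called genes of the other lists in place of 23. Cold replicates 11 and 15 were high in muscle markers. Without both, an alternative added once the data were seen, 321 genes, 411 transcripts, 0 members and 13 genes of the other lists were called. The lone cold library is then taken to vary like the controls. With no count filter the median change of the genes tested above moved by 0.12, and with the other scalings by at most 0.067. Depth limits what can be said of features with few reads, such as Idh3a-201, Acly and Idh1 in the group where each is low.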
